A study of Sus scrofa with 4 samples.

Results

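The cells described here are the organoid cells in which genes of G2 and mitosis were most highly expressed. They were found in 2 libraries of porcine pancreatic ductal organoids (PPDO), epithelial cultures that were grown in extracellular matrix from cells of the pancreatic duct. A score was computed for every cell as the mean of ln(1 + UMIs per 10000 UMIs of the cell) over CENPF, TOP2A, TPX2, HMMR, UBE2C, CCNB1, ASPM and CDC20, where UMIs (unique molecular identifiers) count captured RNA molecules. The highest 6% of each library were taken, which gave 533 of 8885 cells in PPDO 1 and 440 of 7337 cells in PPDO 2, or 973 of 16222 organoid cells. They are called G2/M-score cells below.

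Before mitosis, cells pass through S phase, in which DNA is replicated, and G2, in which replicated chromosomes are kept apart from division until cyclin B and CDK1 become active. Genes of the spindle, the kinetochore and chromosome condensation are transcribed in G2 and mitosis by a shared program with MYBL2 and FOXM1. Some of their proteins are removed at mitotic exit by a ubiquitin ligase, the anaphase-promoting complex (APC/C). In the adult pancreas duct cells divide rarely, whereas organoid medium with WNT and EGF signals keeps them in cycle.

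The PPDO lines are described as from a late postnatal (adolescent) and an adult pig, at an earlier and a later passage. The filters in the study's methods, however, name both samples by postnatal ages within its late postnatal range, so the stage of the second line is uncertain. Which library holds which line is not in the labels, so age, passage and line cannot be told apart. Both were grown in medium with WNT3A, R-spondin and noggin, EGF, FGF10, a TGF-beta receptor inhibitor (A83-01) and a ROCK inhibitor (Y-27632), dissociated, and sorted for live cells by 7-AAD exclusion. Each library is a single confluent well of its line. The 2 primary pancreas libraries, from a wild-type pig whose ducts were picked by hand and from an INS-eGFP pig whose lectin-positive, eGFP-positive and unselected cells were pooled after sorting, were used only for the share of cells with a high score. The whole series held 26154 cells after filtering. PPDO 1 and PPDO 2 carried 300990276 and 262372786 UMIs in the cells kept, with medians of 34176 and 34459 per cell. PPDO 1 and PPDO 2 shared 18 cell barcodes, and none of these belonged to a G2/M-score cell in both. Sums per library were compared, since cells are not replicates, and no test could be based on more than 2 organoid libraries.

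The score had no gap at the limit. In PPDO 1 the lowest G2/M-score cell had a score of 0.213 and the highest cell below it 0.212, with 101 G2/M-score cells and 360 other cells within 0.1 of the limit. In PPDO 2 the scores on both sides were 0.400 and 0.393, with 43 and 62 cells within 0.1. The median cell scored 0.0193 and 0.0201, and 48.9% and 48.2% of cells had no UMI of any of the 8 genes. The G2/M-score cells themselves ranged up to 2.11 and 2.23 around medians of 0.585 and 0.917. The limit thus cuts through a continuous range of scores, and whether part of these cells form a separate population was not tested.

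**Figure D1:**
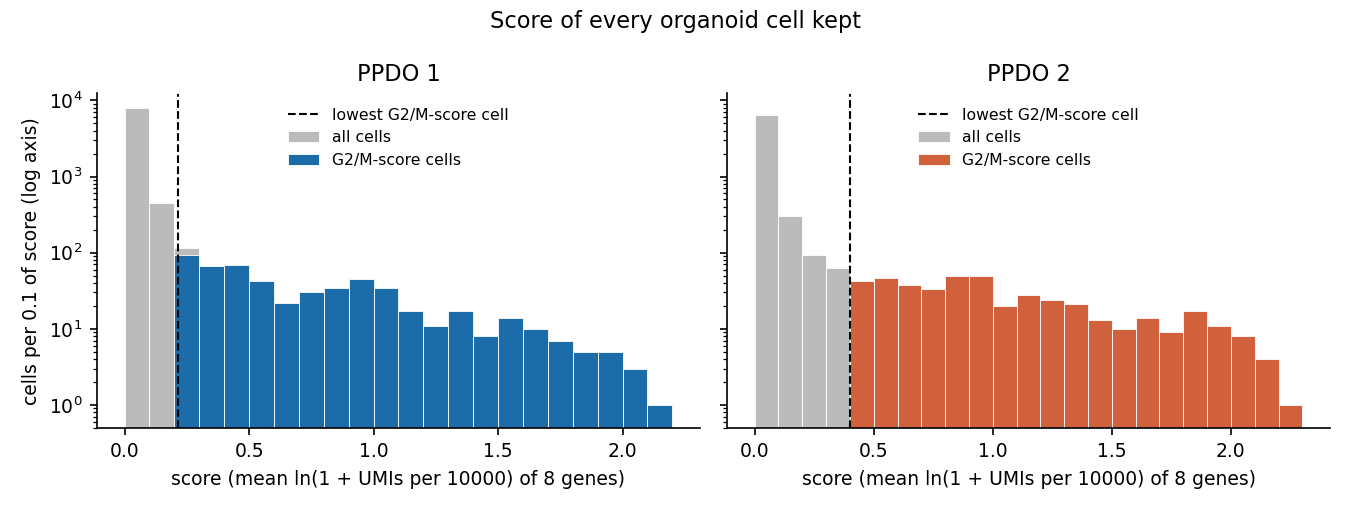
Number of cells (log axis) in bins of 0.1 of the G2/M score, the mean ln(1 + UMIs per 10000) of 8 genes, in PPDO 1 (left) and PPDO 2 (right), with all cells in grey, G2/M-score cells in colour and the lowest G2/M-score cell as a dashed line. The limit lies at 0.213 in PPDO 1 and 0.400 in PPDO 2, on the slope of the distribution, and scores reach 2.11 and 2.23.

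The 8 genes that chose the cells are given first, as a description with no test. CCNB1, the cyclin whose complex with CDK1 starts mitosis, had 90.1 CPM (counts per 1000000 UMIs) in the G2/M-score cells of PPDO 1 and 130 CPM in those of PPDO 2, against 0.871 and 1.33 CPM in all other cells. CDC20, the activator of the APC/C in mitosis, had 83.3 and 129 CPM, against 1.51 and 2.23 CPM. UBE2C, the ubiquitin-conjugating enzyme that works with it, had 125 and 253 CPM, against 2.28 and 5.09 CPM. All 3 were thus lowest in the other cells of PPDO 1 and highest in the G2/M-score cells of PPDO 2.

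TOP2A, the topoisomerase that untangles sister chromatids, took the most UMIs of the 8, at 295 and 434 CPM, against 2.86 and 4.97 CPM. CENPF, a kinetochore protein that accumulates in G2, had 279.6 and 395 CPM, against 5.31 and 4.99 CPM. The spindle genes followed, among them TPX2, which activates Aurora A on microtubules, with 209 and 255 CPM against 3.34 and 3.96 CPM. HMMR, which binds spindle microtubules, had 204 and 270 CPM against 4.07 and 4.43 CPM. ASPM, a protein of spindle poles, had 155 and 233 CPM against 5.83 and 5.79 CPM, the highest level among the 8 genes in the other cells of both libraries. In all 8 genes the G2/M-score cells of PPDO 2 were above those of PPDO 1. The limit was also higher in PPDO 2 (0.400 against 0.213), so the choice of cells bears on this order.

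**Figure D2:**
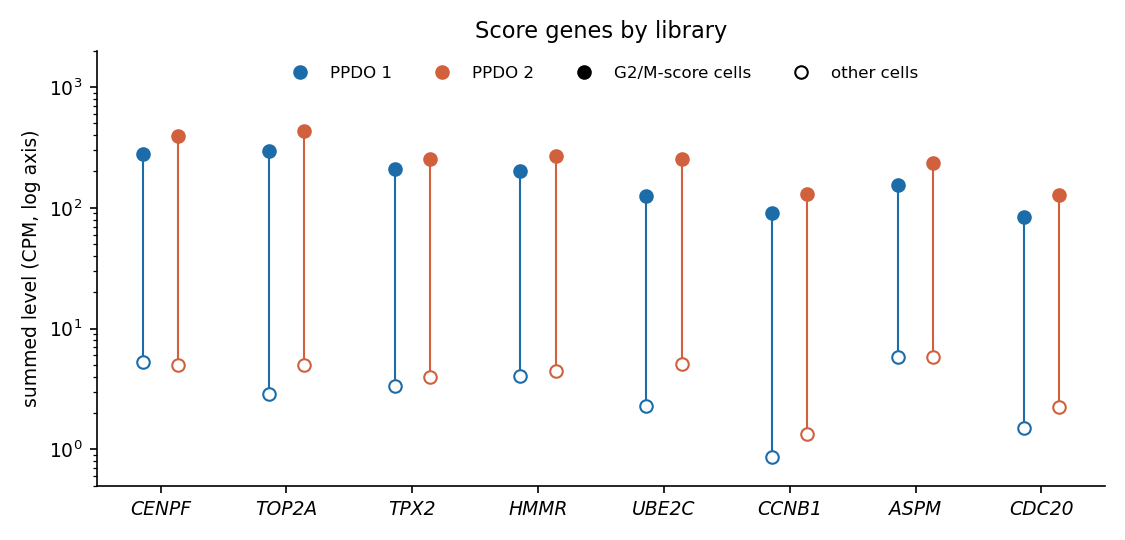
Summed level in CPM (log axis) of the 8 score genes in G2/M-score cells (filled) and in all other organoid cells (open) of PPDO 1 (blue) and PPDO 2 (orange). The G2/M-score cells lie at 83.3 to 434 CPM and the other cells at 0.871 to 5.83 CPM, a difference that the choice of cells fixes.

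By the RefSeq annotation of Sscrofa11.1, in which all 8 symbols were found, the score genes lie on 6 chromosomes. CCNB1 is at chr16:47338239-47348385 and HMMR shares its chromosome at chr16:60290684-60332411. TPX2 at chr17:35431271-35484814 and UBE2C at chr17:48018403-48021542 also share one. The others are TOP2A at chr12:22001300-22028452, CENPF at chr9:128948386-129012241, ASPM at chr10:19971516-20039680 and CDC20 at chr6:167886266-167890587.

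The label was checked against 99 other genes of mitotic entry, spindle, kinetochore and chromosomes that the rule had not used. Together these had 9328 and 11700 CPM in the G2/M-score cells of PPDO 1 and PPDO 2, against 1550 and 1677 CPM in the other cells. Of the G2/M-score cells, 83.9% and 88.2% were also in the highest 6% of a score over those genes, against 1.03% and 0.754% of the other cells. The label held less well at low depth in PPDO 1. There, 73 G2/M-score cells had under 10000 UMIs, with a median of 3 score genes found, and 57.5% of them were in the highest 6% of the other score, compared with 88.0% of the deeper ones. PPDO 2 had 6 such cells, all of which were in that highest 6%.

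A UMI was found for at least 6 of the 8 score genes in 70.2% of the G2/M-score cells of PPDO 1 and in 95.7% of those of PPDO 2. Among the other cells, 7 in PPDO 1 and 61 in PPDO 2 also had at least 6 of these genes. G2/M-score cells with 2 or fewer of the genes numbered 32 and 0. In a second choice, cells were first thinned to 10000 UMIs, which left out 522 and 176 cells with fewer, among them 73 and 6 G2/M-score cells, and the highest 6% of the rest were taken. Of the G2/M-score cells that were not left out, 414 of 460 and 409 of 434 were taken again. Shares of cells by state are also given for this choice where they moved by over 1.5 times.

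G2/M-score cells carried more RNA molecules than other cells. Their median was 39307 UMIs in PPDO 1 and 43971.5 UMIs in PPDO 2, against 33798 and 34006 UMIs, ratios of 1.16 and 1.29. They also had more features, with medians of 7328 and 7480.5 against 6343.5 and 6258. Barcodes with over 9000 features had been left out, which cuts the upper end of depth. Median UMIs were 35310 and 35127 over all barcodes, against 34176 and 34459 in the cells kept. How many of the barcodes left out would score high was not tested. In PPDO 2 the share of G2/M-score cells was 2.04% among the 10% of cells with the fewest UMIs and 16.8% among the 10% with the most. In PPDO 1 it was 13.0% among the 10% with the most and 9.67% among the 10% with the fewest (86 of 889 cells), where the cells with few score genes lay, but 1.58% in the 10% next above those. Doublet scores in the highest 5% of a library were found in 8.82% and 10.0% of G2/M-score cells and in 4.75% and 4.68% of other cells, and without those cells the ratios of median UMIs were 1.16 and 1.29. The part of larger cells and of doublets in these values was not tested, and with 2 libraries an exact paired permutation test cannot go below p = 0.5.

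Many G2/M-score cells also expressed genes of DNA replication. A second score was built in the same way from MCM3, MCM5, MCM6, DTL, CLSPN, GINS2, CDC45 and UHRF1, and the same number of cells was taken (S-score cells). Cells in both sets numbered 197 in PPDO 1 and 119 in PPDO 2, which is 37.0% and 27.0% of each set. These shared cells had the highest median depth, 49588 and 52526 UMIs, compared with 42353 and 42041 UMIs for S-score cells alone. The 8 genes of the G2/M score, which chose them, summed to 1188 and 1433 CPM in the shared cells, below the 1441 and 2100 CPM of all G2/M-score cells.

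To see how the G2/M-score cells differ among themselves, those with at least 10000 UMIs (460 and 434 cells) were thinned to 10000 UMIs and ordered by their replication genes, and 125 genes of mitosis were compared between the cells highest and lowest in that order (115 cells each in PPDO 1 and 108 each in PPDO 2, called high-replication and low-replication cells). With exact Poisson intervals, which cover counting error only, 37 genes had intervals apart and were higher in the high-replication cells of both libraries, and 10 were higher in the low-replication cells of both. None had intervals apart in opposite directions. The order included the genes of the S score, and 99.1% and 89.8% of the high-replication cells were also S-score cells. Of the low-replication cells 0.870% and 0% were. The comparison is thus nearly one of cells in both sets with G2/M-score cells outside the S-score set. TOP2A among the 37 and ASPM, CCNB1, CDC20 and TPX2 among the 10 are score genes that the rule used to choose the cells. Outside the score, 111 of the mitosis genes had the 9 UMIs in each library that such a difference needs, of which 36 (32.4%) were higher in the high-replication and 6 (5.41%) in the low-replication cells. Over all 10416 genes with as many UMIs, score and replication genes left out, the shares were 4.02% and 2.72%, a background that was computed after the counts had been seen. The count of 6 is thus near the share over all genes. No test was made, because the compared cells come from the same 2 libraries.

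The 6 genes of the low-replication cells that the rule had not used were UBE2S, CDKN3, CENPE, DLGAP5, BIRC5 and TUBB4B. UBE2S, which extends the ubiquitin chains of the APC/C, had 254 CPM (95% interval 226 to 285) in the low-replication cells of PPDO 1 and 74.8 CPM (59.8 to 92.4) in the high-replication cells. In PPDO 2 it had 236 CPM (208 to 267) and 120.4 CPM (101 to 143). CDKN3, a phosphatase of CDKs, followed the same order, at 195 against 57.4 CPM in PPDO 1 and 220.4 against 79.6 CPM in PPDO 2. CENPE, a kinetochore motor, had 180.0 against 87.0 CPM and 238 against 131 CPM. BIRC5 (survivin, of the chromosomal passenger complex), DLGAP5 (a spindle assembly factor) and TUBB4B (a tubulin) completed the 6.

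Inhibitors of the APC/C and of phosphatases, CDK1 and condensins were among the 36 genes outside the score of the high-replication cells. FBXO5, the inhibitor of the APC/C in S and G2, had 53.9 CPM (41.3 to 69.1) in the high-replication cells of PPDO 1 and 3.48 CPM (0.948 to 8.91) in the low-replication cells. In PPDO 2 it had 69.4 CPM (54.6 to 87.0) and 1.85 CPM (0.224 to 6.69). MASTL, the kinase that blocks the phosphatase PP2A at mitotic entry, had 47.0 against 1.74 CPM and 75.0 against 2.78 CPM, with 2 and 3 UMIs in the low-replication cells. CDK1, the partner of cyclin B, had 135 against 18.3 CPM and 179 against 73.1 CPM. Condensin genes (NCAPG, NCAPG2, NCAPH, NCAPD3, SMC2 and SMC4) and LMNB1, of the nuclear lamina, were also among the 36.

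The score genes did not order the cells alike, which is given as a description, since the rule used them. CCNB1 had 82.6 CPM in the low-replication cells of PPDO 1 against 20.9 CPM in the high-replication cells, and 143.5 against 26.9 CPM in PPDO 2. CDC20 had 107 against 28.7 CPM and 179 against 40.7 CPM, and ASPM 150.4 against 39.1 CPM and 250.0 against 72.2 CPM. In contrast, TOP2A was higher in the high-replication cells, at 242 against 111 CPM and 370.4 against 163 CPM. CENPF had 162 against 133 CPM and 247 against 242 CPM and UBE2C 54.8 against 67.0 CPM and 151 against 134 CPM, with overlapping intervals in both libraries. Over the same thinned G2/M-score cells, the Spearman correlation of TOP2A was 0.552 and 0.664 with CENPF but -0.054 and -0.092 with CDC20. These correlations come from cells of single libraries that were chosen on the sum of these genes, and are given as a description. Cells of the high-replication cells were deeper before thinning, with medians of 51147 and 52710 UMIs against 34409 and 35870.5 UMIs.

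**Figure D3:**
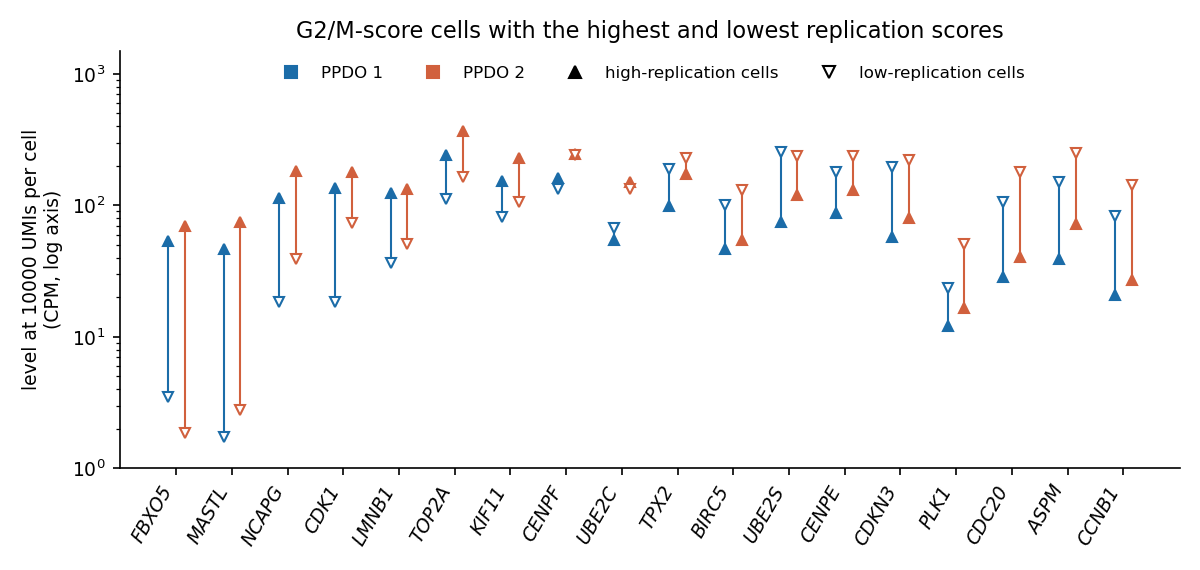
Level in CPM (log axis), at 10000 UMIs per cell, of 18 genes in the G2/M-score cells with the highest (high-replication, filled upward triangles) and the lowest (low-replication, open downward triangles) replication scores, in PPDO 1 (blue, 115 cells each) and PPDO 2 (orange, 108 cells each). FBXO5, MASTL, NCAPG, CDK1, LMNB1, TOP2A and KIF11 are higher in the high-replication cells, and CDC20, ASPM and CCNB1 in the low-replication cells of both libraries.

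The G2/M-score cells were next compared with all other organoid cells over every gene outside the score. Sums per library were tested with edgeR's quasi-likelihood test with library as a term, and a false discovery rate (FDR, Benjamini-Hochberg) under 0.05 was called. Of 21605 genes, 6752 were called, 31.3% of those tested, with 3396 (15.7%) higher and 3356 (15.5%) lower in the G2/M-score cells. Calls with a fold of at least 2 numbered 877 higher (4.06%) and 686 lower (3.18%). Without the library term 1256 genes were called, 886 higher and 370 lower, and with library totals in place of TMM factors 4960 were called higher and 2303 lower. The test has 1 residual degree of freedom and borrows its spread over genes, so an FDR here does not say that a gene would move with the score in other lines. SEs given with edgeR values were computed from the fold change and the test statistic. They carry the same borrowed spread and do not measure the difference between libraries. DESeq2 gave larger SEs for CCNB3 (0.21 against 0.14) and KRTDAP (0.41 against 0.12). A call does not require both libraries to move alike either, and called genes named below whose libraries went opposite ways are pointed out.

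Genes of mitosis rose together, which is a check of the label rather than a separate result, because the score was made of genes of the same program. All 23 tested genes of mitotic entry rose, with a median log2 fold change of 3.26, beside -0.01 over all genes. All 26 tested spindle and cytokinesis genes (of 27 matched), all 30 kinetochore genes and all 19 chromosome genes rose too, with medians of 3.82, 3.15 and 3.53. The same lists rose whole under the choice at 10000 UMIs per cell and with other cells matched on UMIs. Without the library term 28 of the 30 kinetochore genes were called, and DESeq2 called 26 of 27 spindle genes. MKI67, CCNA2, AURKA and PTTG1 had no gene identifier matched to their symbols and are not described.

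By the rule for the largest changes at 20 CPM or more, 10 genes stood highest. CCNB3, a cyclin better known from meiosis, had 26.0 and 43.8 CPM in the G2/M-score cells of PPDO 1 and PPDO 2 and 0.125 and 0.214 CPM in other cells, and rose by 7.57 ± 0.14 (log2, SE; edgeR FDR 9.2e-21, Benjamini-Hochberg). CDCA3, a trigger of mitotic entry, had 29.0 and 38.1 against 0.203 and 0.292 CPM. KIF2C, a kinesin that takes microtubules apart at centromeres, had 62.7 and 81.0 against 0.395 and 0.741 CPM. In each of these the G2/M-score cells of both libraries lay far above all other cells.

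SHCBP1 (midbody), GTSE1 (microtubules and p53), CENPA (the centromeric histone), NDC80 and SGO1 (kinetochore and cohesion), TTK (spindle checkpoint) and NEK2 (centrosome separation) completed the 10, with log2 fold changes of 6.02 to 6.33. A UMI of CCNB3 was found in 12.6% and 19.4% of the thinned G2/M-score cells of PPDO 1 and PPDO 2, against 0.0734% and 0.199% of the 50% of cells with the lowest scores, at the same 10000 UMIs, so the gene with the largest change by the rule was not seen in most G2/M-score cells at 10000 UMIs. This lower part was chosen for few or no UMIs of the score genes, and the part of free RNA in these values was not tested.

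Regulators of mitotic entry differed in size of change. PLK1, a kinase of mitotic entry, had 35.9 and 49.5 CPM against 1.06 and 0.885 CPM and rose by 5.32 ± 0.14 (log2, SE; edgeR FDR 2.2e-18, Benjamini-Hochberg). FOXM1 (4.42) and MYBL2 (3.05), the transcription factors of the program, rose as well, FOXM1 to only 9.72 and 13.2 CPM. The CDC25 phosphatases, which activate CDK1, rose by 4.43 for CDC25C, 1.25 for CDC25B and 1.00 for CDC25A (log2). WEE1, the kinase that opposes them, rose by 2.09. PLK4, the kinase of centriole duplication, rose least in this list, by 0.71, from 129.7 and 117.5 CPM in other cells, where it was already abundant.

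Most genes of the APC/C and its regulators rose by little or were not called. Of 17 tested genes, 10 rose and 1 fell, beside 15.7% and 15.5% of all genes, with a median of 0.34, and only 4 rose by at least 2-fold. These were FBXO5 (27.2 and 38.5 against 1.01 and 1.37 CPM), CCNF (a cyclin of a second ubiquitin ligase), UBE2S and the subunit gene CDC23, whose levels were low at 9.02 and 11.2 CPM. Core subunits such as ANAPC1 (0.47), CDC27 (0.69) and CDC16 (0.34) rose by less, and ANAPC13 fell by 0.21 on the log2 scale. DESeq2 called 7 higher and none lower, without CDC16 (adjusted p = 0.088) and ANAPC13 (adjusted p = 0.082), and edgeR without the library term called 4 and none. The subunit genes ANAPC7, ANAPC10 and CDC26 did not pass DESeq2 either (adjusted p = 0.324, 0.244 and 0.276). With library totals in place of TMM factors the median log2 fold change of all genes moves from -0.01 to 0.10, so the direction of the smallest of these changes depends on the scaling.

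Genes of replication rose by less than those of mitosis. Of 36 tested, 35 rose, beside 15.7% of all genes, with a median of 1.88, and UNG did not pass the test (0.24, edgeR FDR 0.12, Benjamini-Hochberg). GINS1, of the replicative helicase, rose by 3.03, from 3.81 and 4.90 CPM to 40.7 and 35.8 CPM. TK1, which makes thymidine nucleotides, rose by 2.59. The share of G2/M-score cells that were also S-score cells, 37.0% and 27.0%, stands beside this, and its part was not tested.

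Of the genes of G1 and the CDK inhibitors, 7 of 16 were higher and 7 lower, beside 15.7% and 15.5% of all genes, and without the library term 3 and 3. The cyclin D genes fell, CCND1 to 156 and 105 CPM against 207 and 185 CPM (-0.72), CCND2 by 0.90 and CCND3 by 0.68 on the log2 scale. CDK6, their partner, fell by 0.39, whereas CDK4 rose by 0.44. Among the inhibitors, CDKN2B, induced by TGF-beta, had 15.3 and 19.3 CPM against 38.6 and 41.8 CPM and fell by 1.33. CDKN2C rose by 2.90 (10.4 and 11.6 against 1.90 and 0.930 CPM), and CDKN1A (p21) by 0.48, from 200.1 and 207 CPM to 319.6 and 295 CPM. In all of these both libraries moved the same way.

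Genes of squamous terminal differentiation had the lowest median change of the lists compared with all other cells. The list names proteins of cornifying epithelia, and 16 of 17 tested genes fell and 14 of them by at least 2-fold, with a median of -3.59, beside 15.5% of all genes called lower. Without the library term 4 of the 17 were called lower. KRTDAP, a keratinocyte differentiation protein, had 32.8 and 45.6 CPM in the G2/M-score cells against 373 and 917.5 CPM in the other cells, a fall of 4.04 on the log2 scale with an SE of 0.12 (edgeR FDR 8.3e-18, Benjamini-Hochberg). The SE of DESeq2 for this gene was 0.41. S100A12, a calcium-binding alarmin, had 61.2 and 201 against 844 and 1843 CPM. IVL (involucrin), a precursor of the cornified envelope, had 5.19 and 11.8 against 44.3 and 108 CPM. The level of these genes in other cells was over 2 times higher in PPDO 2 than in PPDO 1, and the summed levels of the G2/M-score cells were far below them in both. The median cell differed by far less. Without thinning the median terminal score (the mean ln(1 + UMIs per 10000) of the list) was 0.0574 in the G2/M-score cells and 0.0624 in the other cells of PPDO 1, and 0.0736 and 0.0880 in PPDO 2. At 10000 UMIs these medians rest on so few UMIs that they cannot show a difference.

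Among genes of at least 20 CPM in the other cells, the 10 with the largest falls were CNFN, SPRP, KRTDAP, SLPI, S100A12, DMKN, S100A8, IVL, KLK7 and TPRG1, and 7 of these belong to the list. Genes of lower level could fall further, as SPINK5, a protease inhibitor of cornifying epithelia, did by 5.03 (0.655 and 0.414 against 15.7 and 16.7 CPM). SLPI, a secreted protease inhibitor, had 18.4 and 16.4 CPM against 157.5 and 306 CPM. TPRG1, whose product is little studied, had 3.07 and 4.04 CPM against 16.5 and 26.6 CPM. Counted over cells, the G2/M-score cells were 1.08% (95% exact interval 0.493 to 2.03%) and 1.40% (0.672 to 2.55%) of the thinned cells in the highest 10% of the terminal score. Over all thinned cells they were 5.50% and 6.06%. The intervals did not reach those shares in either library. Here and for the scores below, the intervals cover only the counting of cells within a library and are not a test, since cells are not replicates. In the highest 20% of the terminal score they were 3.65% (2.80 to 4.66%) and 2.72% (1.94 to 3.70%), and in the highest 10% without thinning 2.82% and 1.23%. With the G2/M-score cells chosen at 10000 UMIs they were 1.67% and 1.54%.

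Basal genes fell together but by little. KRT5, the keratin of basal epithelial cells, had 3712 and 5546 CPM in the G2/M-score cells against 5540 and 7800 CPM in other cells, and fell by 0.65 (log2, SE 0.03; edgeR FDR 4.3e-13, Benjamini-Hochberg). KRT15, a keratin of quiescent basal cells, had 531 and 804 against 1172 and 1483 CPM and fell by 1.13. ITGA6, the laminin-binding integrin, had 493 and 604 against 748 and 875 CPM. TP63, the transcription factor of the basal state, stood at 449.9 and 551 against 562 and 590.3 CPM and fell by 0.32. All 13 tested genes of the list were called lower, beside 15.5% of all genes, with a median of -0.51, and only KRT15 fell by at least 2-fold. Without the library term 2 of the 13 were called. G2/M-score cells were 1.08% (0.493 to 2.03%) and 1.68% (0.869 to 2.91%) of the cells highest in the basal score, and 4.19% and 6.15% of those lowest in it (intervals 2.93 to 5.77% and 4.50 to 8.16%). The cells highest in basal genes thus held fewer of them than the 5.50% and 6.06% over all cells, while the share among those lowest in basal genes depended on how they were taken. In the lowest 20% it was 6.69% (5.54 to 8.0%) and 10.1% (8.55 to 11.7%), with intervals above the shares over all cells in both libraries. In the lowest 10% without thinning it was 2.93% (1.92 to 4.26%) and 4.90% (3.46 to 6.73%), and the interval of PPDO 1 lay below its share over all cells.

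Most genes of hypoxia and glycolysis were lower as well. BNIP3, a mitophagy receptor induced by HIF1A, had 425 and 337 CPM in the G2/M-score cells against 1028 and 607 CPM and fell by 1.18. NDRG1, another hypoxia marker, had 215 and 447 against 578 and 689.5 CPM and fell by 1.14. ADM and VEGFA, secreted factors, fell by 1.17 and 1.13, and EGLN3, the oxygen sensor, by 1.01. In all 5, the difference was larger in PPDO 1 than in PPDO 2.

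Of 18 tested genes of this list, 15 fell and 2 rose, with a median of -0.55, beside 15.5% and 15.7% of all genes. Those that rose were PFKP and ALDOC, of glycolysis, by 0.36 and 1.05. LDHA (462 and 467 against 453 and 508.5 CPM) was called lower by only 0.16, and it differed in direction between the libraries. ANKRD37 was lower in PPDO 1 (25.4 against 42.3 CPM) and higher in PPDO 2 (71.9 against 63.0 CPM), although the fit called it lower. DESeq2 called 12 lower and 2 higher, and LDHA (adjusted p = 0.121) and PGK1 (adjusted p = 0.104) did not pass it. With other cells matched on UMIs 12 genes fell, and without the library term 2 did. Among cells highest in the hypoxia score, 0.837% (0.337 to 1.72%) were G2/M-score cells in PPDO 1 and 3.49% (2.27 to 5.11%) in PPDO 2, against 7.89% and 9.08% of the cells lowest in it. With the G2/M-score cells chosen at 10000 UMIs the share was 1.91% (1.10 to 3.09%) in PPDO 1 and 3.49% in PPDO 2.

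Few WNT genes passed the test. LGR6 and LGR5, receptors of R-spondin, had 76.8 and 77.3 against 70.7 and 85.6 CPM, and 30.7 and 11.0 against 25.1 and 11.7 CPM, and neither passed the test (edgeR FDR 0.22 and 0.95, Benjamini-Hochberg). AXIN2, a target and brake of the pathway, had 29.2 and 21.5 against 26.9 and 23.5 CPM. LEF1, a transcription factor of the pathway, rose, at 51.0 and 47.8 against 32.4 and 24.7 CPM (0.69 ± 0.08, log2, SE; edgeR FDR 9.2e-07, Benjamini-Hochberg). Of 14 tested genes 3 rose and 1 fell, beside 15.7% and 15.5% of all genes, with a median of 0.01. DESeq2 called LEF1 alone, and without the library term none was called. The others called by edgeR were ZNRF3, a ligase that removes WNT receptors (0.21), NKD1, which was under 1 CPM, and LGR4, which fell by 0.22 on the log2 scale. With library totals in place of TMM factors 6 rose and none fell. G2/M-score cells were 5.86% (4.37 to 7.68%) and 6.15% (4.50 to 8.16%) of cells highest in the WNT score, beside 5.50% and 6.06% overall. In the highest 20% they were 6.87% (5.71 to 8.19%) and 6.70% (5.46 to 8.13%), of which the interval of PPDO 1 lay above its overall share. The median WNT score at 10000 UMIs was 0.258 against 0.212 in other cells in PPDO 1 and 0.227 against 0.200 in PPDO 2. They were 1.56% (0.831 to 2.64%) and 2.79% (1.71 to 4.28%) of the cells lowest in it.

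Some duct genes rose and others fell, with a count that depended on the fit. SLC4A4, the sodium bicarbonate cotransporter, had 493 and 432 against 413 and 319 CPM, and rose. CLU, a secreted chaperone, had 43.2 and 34.9 against 119 and 64.1 CPM and fell by 1.29, and KRT7, a duct keratin, had 339.9 and 211 against 392 and 398 CPM and was called lower by edgeR (-0.67) but not by DESeq2 (adjusted p = 0.10). Of 13 tested genes 2 rose (15.7% of all genes did) and 6 fell (15.5%), and DESeq2 called 2 and 3, edgeR with library totals 3 and 3, and edgeR without the library term none. SPP1 was called lower but had 24.4 against 19.9 CPM in PPDO 1 and 3.57 against 21.4 CPM in PPDO 2. Among the genes of matrix and its turnover, TIMP3, an inhibitor of metalloproteinases, fell by 1.35 (31.8 and 42.0 against 87.7 and 85.1 CPM).

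**Figure D4:**
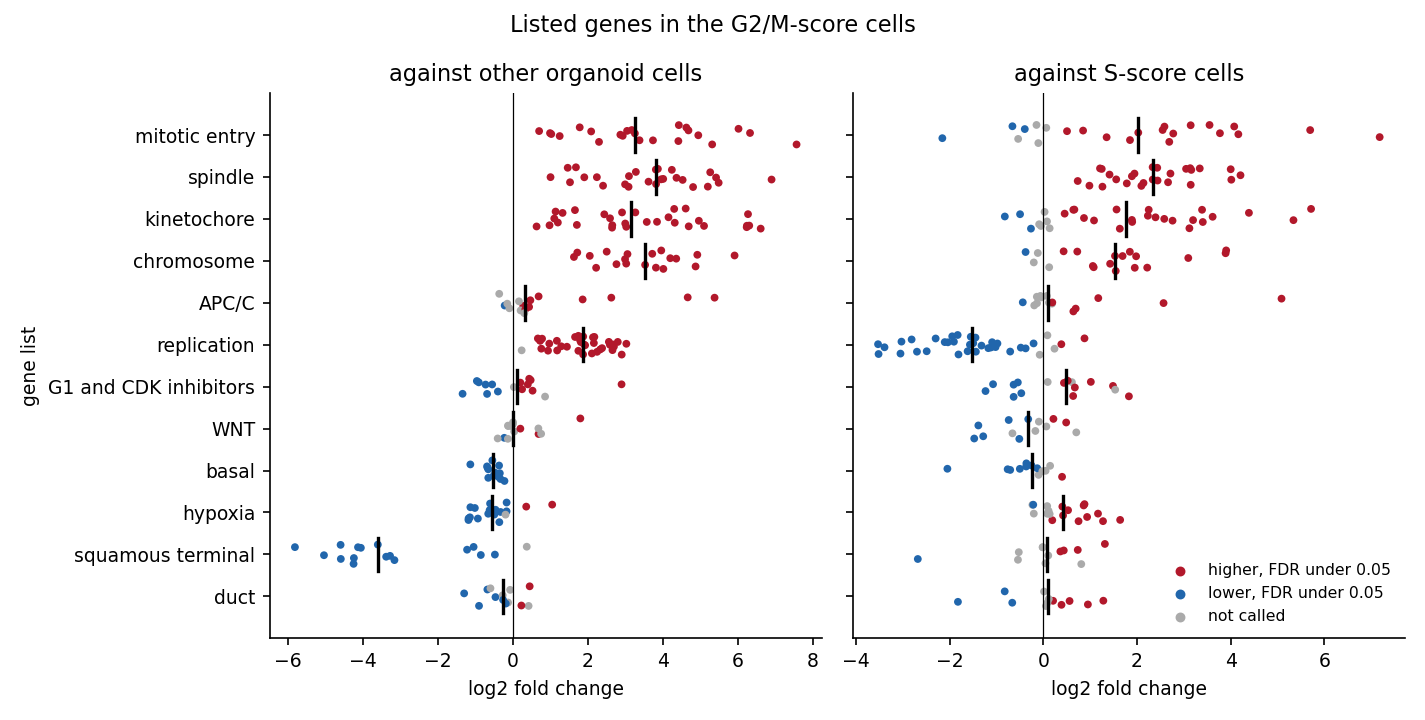
Log2 fold change of each tested gene (points) in 12 gene lists, in G2/M-score cells against all other organoid cells (left) and against S-score cells (right), with the list median as a bar, genes of FDR under 0.05 in red (higher) or blue (lower) and the rest in grey. Against other cells the medians are 3.26 to 3.82 for mitotic entry and spindle and -3.59 for squamous terminal genes, and against S-score cells the median of the hypoxia list is 0.41.

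**Figure D5:**
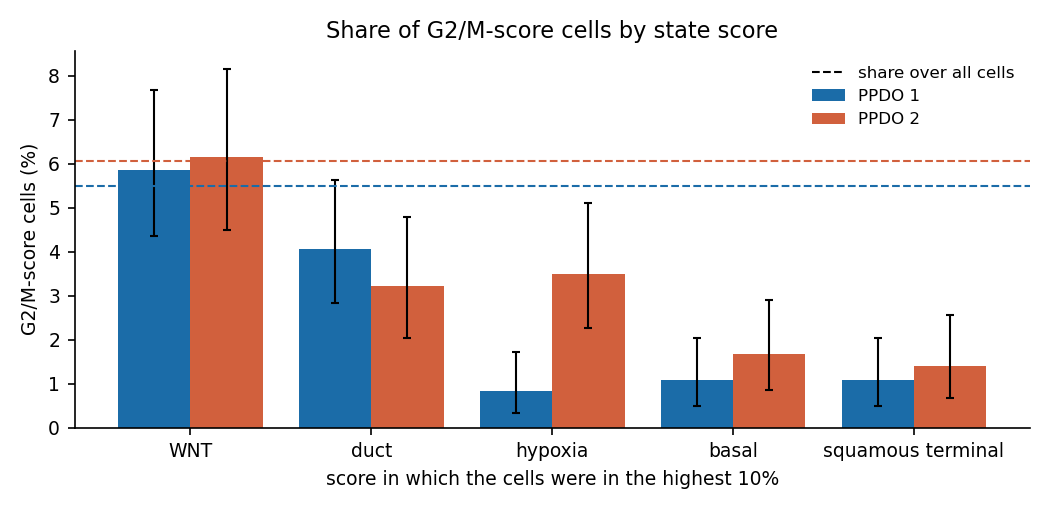
Share of G2/M-score cells, with 95% exact intervals (counting error only), among the 10% of thinned cells highest in each of 5 state scores in PPDO 1 (blue, 836 cells) and PPDO 2 (orange, 716 cells), and over all thinned cells (dashed lines). The shares are 1.08% and 1.40% for squamous terminal genes, 4.07% and 3.21% for duct genes and 5.86% and 6.15% for WNT genes, against 5.50% and 6.06% over all cells.

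Markers of other cell types were low in the G2/M-score cells. Stromal markers summed to 1.09 to 1.21 CPM and endocrine markers, mostly CHGA, to 8.01 to 9.00 CPM. Acinar markers summed to 15.1 and 19.0 CPM, nearly all of it RBPJL, with PRSS2 at 0 in both libraries. Endothelial markers summed to 75.9 and 57.3 CPM, mostly EGFL7. The immune list summed to 4345 and 4147 CPM in the G2/M-score cells and 4909 and 4624 CPM in other cells, nearly all of it CD74, an antigen presentation gene that epithelial cells also express, while PTPRC, which marks leukocytes, had 0.302 and 0.414 CPM.

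To see what sets G2/M-score cells apart from the cells most like them, they were compared with S-score cells, leaving out the cells in both sets and all 16 score genes. This left 336 cells of each set in PPDO 1 and 321 of each in PPDO 2. Levels of G2/M-score cells in this comparison are those of the cells left, not of the full set. Of 15130 genes tested, 5753 (38.0%) were called by edgeR, with 2766 higher (18.3%) and 2987 lower (19.7%), of which 534 (3.53%) and 701 (4.63%) differed by at least 2-fold. In this fit the spread was taken as equal for all genes (infinite prior degrees of freedom), so its FDRs are too small to be read singly, and DESeq2 called 1911 genes and edgeR without the library term 551. Adjusted p-values in this comparison are therefore those of DESeq2.

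Most mitosis genes were higher than in S-score cells, which is again a check of the label rather than a separate result. The G2/M-score cells were chosen on genes of the same program, and S-score cells that also scored high in it were left out. All 26 tested spindle genes were higher in G2/M-score cells (25 of 27 by DESeq2), with a median of 2.35 by DESeq2. Of the 30 kinetochore genes 22 were higher and 3 lower, of the 23 entry genes 16 and 3, and of the 19 chromosome genes 15 and 1, beside 18.3% of all genes higher and 19.7% lower. DESeq2 gave 21 and 1, 15 and 2, and 13 and 0 for these lists, and edgeR without the library term 15 and 1, 12 and 1, and 10 and 0, with 18 spindle genes higher. PLK1 had 45.0 and 63.0 CPM in G2/M-score cells and 1.11 and 0.883 CPM in S-score cells (DESeq2 log2 fold change 5.70, adjusted p = 2.0e-54). CCNB3, PIMREG, CDCA3, CENPA, PLK1 and CCNF were the 6 with the largest rise by the same rule of 20 CPM. FBXO5 did not pass DESeq2 (0.60 ± 0.33, log2, SE, adjusted p = 0.252).

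Replication genes were lower in G2/M-score cells in 31 of 36 cases and higher in 2, with a median of -1.52, beside 19.7% and 18.3% of all genes. DESeq2 called 27 lower and 1 higher, TYMS (0.88, adjusted p = 8.1e-15), and edgeR without the library term 24 and 1. The S-score cells had been chosen on genes of the same process. MCM4, of the replicative helicase, had 6.45 and 7.26 CPM against 65.8 and 74.0 CPM. CHAF1B, a subunit of the chromatin assembly factor, had 3.50 and 3.02 against 36.0 and 36.9 CPM. CDCA7, POLE, UNG and BARD1 completed the 6 largest falls by that rule.

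Other genes that the choice of cells had not used also differed. Of 16 tested genes of G1 and the CDK inhibitors, 7 were higher and 6 lower, beside 18.3% and 19.7% of all genes. DESeq2 called 5 and 5 of them, and edgeR without the library term 2 and 2. CDKN1A had 356 and 299 CPM in G2/M-score cells against 136 and 93.3 CPM in S-score cells, a log2 fold change of 1.49 ± 0.11 (SE, DESeq2 adjusted p = 1.9e-41). CDKN2C rose by 1.83 in both edgeR and DESeq2. CCND1 was lower, at 131 and 95.1 against 244 and 212 CPM. RBL1 (p107), a repressor that E2F itself induces, was at 58.1 and 66.4 against 141 and 143 CPM. CDKN1A was thus above its level in S-score cells and above its level in all other cells in both libraries, whereas CCND1 was below both.

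Some WNT and basal genes were lower than in S-score cells. LGR6 had 41.0 and 61.6 CPM against 130 and 144 CPM (-1.49 ± 0.15, log2, SE, DESeq2 adjusted p = 1.8e-22). LGR5 had 19.2 and 9.38 against 49.0 and 23.6 CPM (-1.39, DESeq2 adjusted p = 3.0e-08). KRT15 had 310 and 554 against 1243 and 2223 CPM, a fall of 2.05 on the log2 scale. With the cells in both sets included, the G2/M-score cells had higher levels of LGR6, LGR5 and KRT15, as given above. These falls thus hold only for the cells outside the S-score set. KRT5 had 3199 and 4846 against 5297 and 7922 CPM, while TP63 had 489 and 598 against 538 and 590.4 CPM and did not pass (DESeq2 adjusted p = 0.522). DESeq2 called 5 of 14 WNT genes lower and 1 higher, and 4 of 13 basal genes lower and 1 higher. By edgeR these counts were 6 and 2 of 13 and 8 and 1 of 13, beside 19.7% of all genes lower and 18.3% higher, and without the library term 1 WNT gene and no basal gene were called. The median log2 difference of the WNT list was -0.56 in PPDO 1 but 0.04 in PPDO 2.

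Hypoxia genes went the other way than against all other cells. ADM had 100.3 and 118 CPM in G2/M-score cells against 25.6 and 43.6 CPM in S-score cells (1.66 ± 0.16, log2, SE, DESeq2 adjusted p = 9.7e-22). NDRG1 had 308 and 564 against 147 and 222 CPM, and BNIP3 532 and 415 against 295 and 193 CPM. Of 18 genes, 11 were higher and 1 lower, with a median of 0.41 (8 and 0 by DESeq2, and none without the library term), beside 18.3% of all genes higher. Levels of ADM, NDRG1 and BNIP3 in G2/M-score cells were thus above those of S-score cells and below those of all other cells in both libraries. The 2 comparisons share the G2/M-score cells, so they are not independent of each other.

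Squamous terminal genes, far below other cells in sum, were not lower as a list than in S-score cells. Of 12 tested genes 4 were higher and 1 lower, beside 18.3% and 19.7% of all genes, with a median of 0.07, and DESeq2 called 2 of 17 higher and 1 lower and edgeR without the library term none. KRTDAP had 45.2 and 51.0 CPM in G2/M-score cells and 29.7 and 59.96 CPM in S-score cells (DESeq2 adjusted p = 0.910). IVL had 5.81 and 16.1 against 1.63 and 7.21 CPM and was higher (1.41 ± 0.41, log2, SE, DESeq2 adjusted p = 0.00721).

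Primary pancreas was used to ask how common such scores are outside culture. Cells were thinned to 3000 UMIs, which left out 61 cells of PPDO 1, 10 of PPDO 2 and 589 of primary pancreas 1 with fewer, and 1 limit was used for all libraries, 0.219, the mean of the lowest scores in the highest 6% of each thinned organoid library. At this depth 1 UMI of 1 score gene falls below the limit and any 2 UMIs of the score genes pass it. A cell above it is thus not shown to be in G2 or mitosis. At or above the limit were 4.34% of cells in PPDO 1 and 6.14% in PPDO 2, against 0.925% (47 of 5082 cells, 95% exact interval 0.680 to 1.23%) in primary pancreas 1 and 0.399% (17 of 4261 cells, 0.233 to 0.638%) in primary pancreas 2. At 1500 UMIs the same rule put the limit at 1 UMI of 1 score gene, and the shares, which then count any cell with a UMI of these genes, were 7.71% and 8.98% against 3.01% and 1.57%. The limit was set on the organoid cells, so their shares follow from the rule, apart from ties and from the mean over 2 libraries, and no test of the difference is given. With at least 3 of the 8 genes in a cell as the measure, chosen after the data were seen, the shares were 2.63% and 3.99% against 0.531% and 0.211%.

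All 8 score genes were higher over both organoid libraries than over both primary libraries. CENPF had 23.4 and 33.7 CPM over all cells of PPDO 1 and PPDO 2, against 10.6 and 2.02 CPM in primary pancreas. Endocrine markers took 391394 CPM over all cells of primary pancreas 2, which leaves fewer UMIs for every other gene of that library. The part of this in its levels and in its share above the limit was not tested. The 47 and 17 primary cells above the limit differed in markers between the libraries. In those of primary pancreas 2 endocrine markers, led by INS (insulin), were the highest list at 217590 CPM, against 391394 CPM over all cells of that library, whereas in those of primary pancreas 1 they summed to 123 CPM and duct markers were the highest list. The duct markers of the high-scoring cells summed to 6593 and 3910 CPM, against 18423 and 8607 CPM over all cells of these libraries. Their immune list, led by CD74, which epithelial cells also express, summed to 5233 and 4631 CPM, against 2535 and 1030 CPM. Picking of ducts and sorting by lectin and eGFP set which cells these libraries hold, so the shares do not describe the organ.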

How the data were processed

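The measurement was droplet single-cell RNA sequencing of 2 PPDO and 2 primary pancreas libraries from pigs, grouped by sample title. The authors made 10x Chromium 3' v3.1 libraries and counted UMIs with Cell Ranger 7.1.0 against an in-house pig annotation. The submitters' processing notes name the build Sscrofa11.1. The deposited counts are raw UMI counts per feature and barcode, and barcode and feature names are deposited as tables of other content. The authors' SoupX correction for free RNA is not in these counts.

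The 56060 features were summed to 30282 genes, extensions of gene ends included. Symbols came from the feature table for 16699 genes and from a gene name table for 722, and 12861 had none. PPDO cells with 1000 to 9000 features and at most 3% mitochondrial UMIs were kept (90.2% and 90.9% of 9853 and 8071 barcodes). Primary cells were kept by the study's limits on features, UMIs, mitochondrial UMIs and Scrublet scores (Scanpy 1.11.5). Doublets were not removed from PPDO.

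UMIs were summed per library and set of cells and tested with edgeR 4.0.16 (TMM, filterByExpr, glmQLFit, glmQLFTest, Benjamini-Hochberg at 0.05) with library as a block, because both sums of a library come from the same cell suspension. DESeq2 1.42.0 was an alternative. The edgeR p-values rest mostly on a spread shared over genes and do not measure how far lines differ. Residual degrees of freedom were 1, and prior degrees of freedom were 20.1 against other cells and infinite against S-score cells. The edgeR step was also run on simulated data, in which every gene had the same spread (dispersion 0.0043, from the fit itself). For the comparison with other cells (21610 genes) it recovered 96% of 2-fold changes and 69% of log2 changes of 0.5, with 5 false calls. The changed genes were drawn only from genes above a floor of expected UMIs, and both libraries had the same gene means. The recovered shares and false calls hold for that setting only. Recovery of genes below the floor and the rate of false calls in real libraries were not tested. Exact intervals are Clopper-Pearson (shares) and Poisson (UMIs) at 95% and cover counting error only. Genes named in the text are the score genes, genes of the lists, and the 10 (other cells) or 6 (S-score cells) genes of largest change in each direction with a unique symbol, an FDR under 0.05, at least 20 CPM in the higher group and the same direction in both libraries. The cells, gene lists and tests were chosen with earlier results of these data known. The human organoid data were not analysed here.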

Additional observations from a re-analysis of the deposited data

How the results depend on the processing

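Without the replicate block (library as a term) 1256 genes were called against other cells, in place of 6752, and 551 against S-score cells, in place of 5753, where DESeq2 called 1911. Against other cells the remaining alternatives gave 4601 (DESeq2) to 7263 calls. Library totals without TMM raised the share of higher calls from 50.3% to 68.3% (4960 higher and 2303 lower). Counts could not be refitted without a library, since no residual degrees of freedom remain.

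The mean share of G2/M-score cells among cells highest in the WNT score was 6.003%, and 5.69% without thinning, 6.79% in the highest 20% and 6.54% with G2/M-score cells chosen at 10000 UMIs. For the basal score it was 1.38%, and 1.85% in the highest 20%. For the terminal score it was 1.24%, and 2.02%, 3.18% and 1.605% under the same 3 alternatives. All of the basal and terminal shares stayed under those over all cells. Leaving out a library gave 0.837% to 3.49% for the hypoxia score, whose mean was 2.16%. The mean primary share was 0.662%, and 2.29% at 1500 UMIs, where any UMI of a score gene passed the limit.

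Changes of sign were followed only for named and listed genes that were called in the main fit. Genes not called could change sign too, since 8 of 14 WNT genes were positive in the main fit and 6 by DESeq2. Log2 fold changes against other cells changed sign for KRT4 in the highest 8% (0.0779) and for ANKRD37 with other cells matched on UMIs (0.0292). Against S-score cells they did so in the highest 4% for FBXO5 (-0.0690) and SPP1 (-0.731). Leaving out a library, the range was -0.123 to 0.0295 for LDHA, -0.723 to 0.189 for ANKRD37 and -2.43 to 0.288 for SPP1 against other cells, and -0.0934 to 0.790 for S100A8 against S-score cells. The cause was not tested. Genes under about 1 CPM were measured with few UMIs.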

Other observations

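Of 4 tested matrix genes, 3 were called lower than in other cells (15.5% of all genes), and 1 without the library term. They were not lower than in S-score cells, where 2 of 4 tested were called higher and none lower (18.3% and 19.7% of all genes), and none was called without the library term. Of the calls of at least 2-fold, 494 of 1563 against other cells and 384 of 1235 against S-score cells belonged to genes without a unique symbol, which are counted but not described.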
